A study of Homo sapiens with 4 samples.

Results

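The genes of antigen presentation by major histocompatibility complex (MHC) class I and class II were followed by RNA sequencing in KMS11, an established human myeloma cell line with the t(4;14) translocation. The set was a list of 34 gene symbols, picked for their role in presentation, out of 62069 genes in the deposited files. It held 15 genes of the class I route, 16 of the class II route and 3 regulators that serve both. All cells were infected with lentivirus in 10 µg/mL polybrene and collected 96 h after infection, the last 72 h in fresh medium. The genotype was labelled Control in 2 libraries and NSD2 Knockdown in the other two (titled shM2). The sequences of the shRNAs, what the control virus carried and the promoter that drove them are not given in the sources used here, and all libraries come from this 1 cell line. Nothing in the labels says that the 2 libraries of a group were separate cultures. The p-values therefore cover only the spread between the libraries at hand, which may be technical.

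The libraries held 46728940 to 55059566 counted fragments, and 5.82% to 6.81% of them fell on mitochondrial genes. NSD2 encodes a histone methyltransferase and comes under immunoglobulin enhancers in cells with this translocation. It gave 1120.0 and 1471 CPM under the Control label, against 919 and 1155 CPM under the Knockdown label. CPM are counts of a gene's fragments scaled to a common library size after TMM normalization, and pairs of values are given in the order of library 1 and library 2. The groups overlapped and NSD2 did not pass the test (log2 fold change -0.32, SE 0.15, edgeR adjusted p = 0.244), so the libraries of the other group are named here only by their label. Of the 7 plasma cell markers listed, 2 were called lower (CD38 and SLAMF7), against 4.19% of all genes tested. CD38 was low throughout, at 1.54 and 0.699 CPM against 0.289 and 0.0368 CPM. The summed level of the 7 was 2894 and 3128 CPM in the control libraries and 2764 and 3142 CPM in those labelled knockdown.

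Class I molecules are carried by nearly all nucleated cells. They show peptides made in the cytosol, cut by the immunoproteasome, moved into the endoplasmic reticulum by TAP and trimmed there by ERAP proteases, on a heavy chain paired with beta-2 microglobulin. Class II molecules belong to professional antigen-presenting cells such as B cells. They are pairs of an alpha and a beta chain that travel with the invariant chain CD74 to endosomes, where HLA-DM exchanges the remnant of CD74 for peptide and HLA-DO restrains HLA-DM. Transcription of the class II genes needs the coactivator CIITA, which binds no DNA itself but docks on a complex of RFX5, RFXAP and RFXANK, CREB and NF-Y at promoter motifs called the X and Y boxes. Normal plasma cells largely switch CIITA off as they mature from B cells, and NLRC5 is the related coactivator of class I genes.

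Of 14 class II genes whose promoters were searched, 7 held that motif pair. Their stretches, and that of HLA-DMB with an X box but not the pair, are printed here because most class II genes changed in the same direction. The search covered the 250 bases before each RefSeq gene start on GRCh38.p14, and 30 of the 34 genes had such a window (not HLA-DRA, HLA-E, CIITA and NLRC5). Capitals mark the X box (CCNAG, then 2 free bases, then ACNGATG, with at most 1 mismatch over its 10 fixed letters, searched on both strands) and the Y box (GATTGG, both strands). All stretches read 5′ to 3′ on the gene's own strand, which is the minus strand of chromosome 6 for each.
HLA-DRB1, chr6:32589882-32589938: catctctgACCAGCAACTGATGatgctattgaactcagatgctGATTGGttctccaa
HLA-DRB5, chr6:32530365-32530421: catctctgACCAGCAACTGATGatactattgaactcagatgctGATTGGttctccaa
HLA-DQB1, chr6:32666733-32666789: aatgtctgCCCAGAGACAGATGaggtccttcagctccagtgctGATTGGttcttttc
HLA-DQB2, chr6:32763608-32763664: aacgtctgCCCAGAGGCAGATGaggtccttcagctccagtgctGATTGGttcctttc
HLA-DMA, chr6:32953164-32953221: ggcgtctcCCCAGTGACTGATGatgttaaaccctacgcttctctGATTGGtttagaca
HLA-DMB, chr6:32941076-32941127: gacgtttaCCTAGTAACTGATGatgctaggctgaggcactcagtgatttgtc
HLA-DOA, chr6:33009646-33009703: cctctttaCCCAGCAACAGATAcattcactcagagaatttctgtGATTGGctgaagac
HLA-DOB, chr6:32817088-32817143: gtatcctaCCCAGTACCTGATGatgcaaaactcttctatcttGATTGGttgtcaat

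An X box followed by a Y box 30 to 40 bases on, counted from first base to first base, was sought in the windows. It stood in 7 of the 27305 genes with a window (0.0256%), where a gene with several windows counted once. Those 7 were the class II members above other than HLA-DMB. The spacing limits were chosen after these sequences had been read, so the count describes the windows and tests nothing. HLA-DMB held an X box without mismatch and no Y box at that distance. An X box, with or without a Y box, stood in 1.67% of all genes with a window, in 8 of 14 class II genes and in 0 of 13 class I genes. A Y box, with or without an X box, stood in 16.8% of all genes with a window, 10 of 14 class II genes and 5 of 13 class I genes. A match to these letters is not a measured binding site, and a miss does not show that a box is absent. Boxes with other letters, or outside the 250 bases, would not be found. Presence of a match to the pair did not divide the genes that fell from the rest. It was present in HLA-DRB1, HLA-DRB5, HLA-DQB1, HLA-DQB2 and HLA-DMA, which fell, and in HLA-DOA, which was not tested, and HLA-DOB, which was not called. HLA-DPA1, HLA-DPB1, HLA-DQA1 and HLA-DQA2 fell without a match to the X box or the pair in their windows. HLA-DMB fell with an X box and no pair. Any part of these boxes in the changes was not tested.

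The study's comparison asks how transcripts differ when NSD2 is targeted, here those of both presentation routes. In the class II group 12 of the 15 tested members fell and 0 rose, at an adjusted p below 0.05 over all 17172 genes tested. In the class I group 1 of 15 fell and 0 rose. DESeq2 called 13 class II and 3 class I members lower, where it called 4.63% of all its genes lower, and 0 members higher. With added terms for GC content and length, edgeR called 12 class II and 2 class I members lower, against 3.76% of all genes. Limma-voom also called 0 members higher. Over all tested genes 4.19% were called lower and 1.74% higher. The median log2 fold change was -0.83 in the class II group, -0.20 in the class I group and 0.00 over all genes tested. The groups of libraries did not overlap, with knockdown lower, for 13 class II members and 9 class I members, against 26.2% of all tested genes. The members were listed with earlier results of these data known, so the 2 routes are described by these counts and no test of their difference was made. In bulk RNA, fewer cells that carry a transcript and less of it per cell cannot be told apart.

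**Figure D1:**
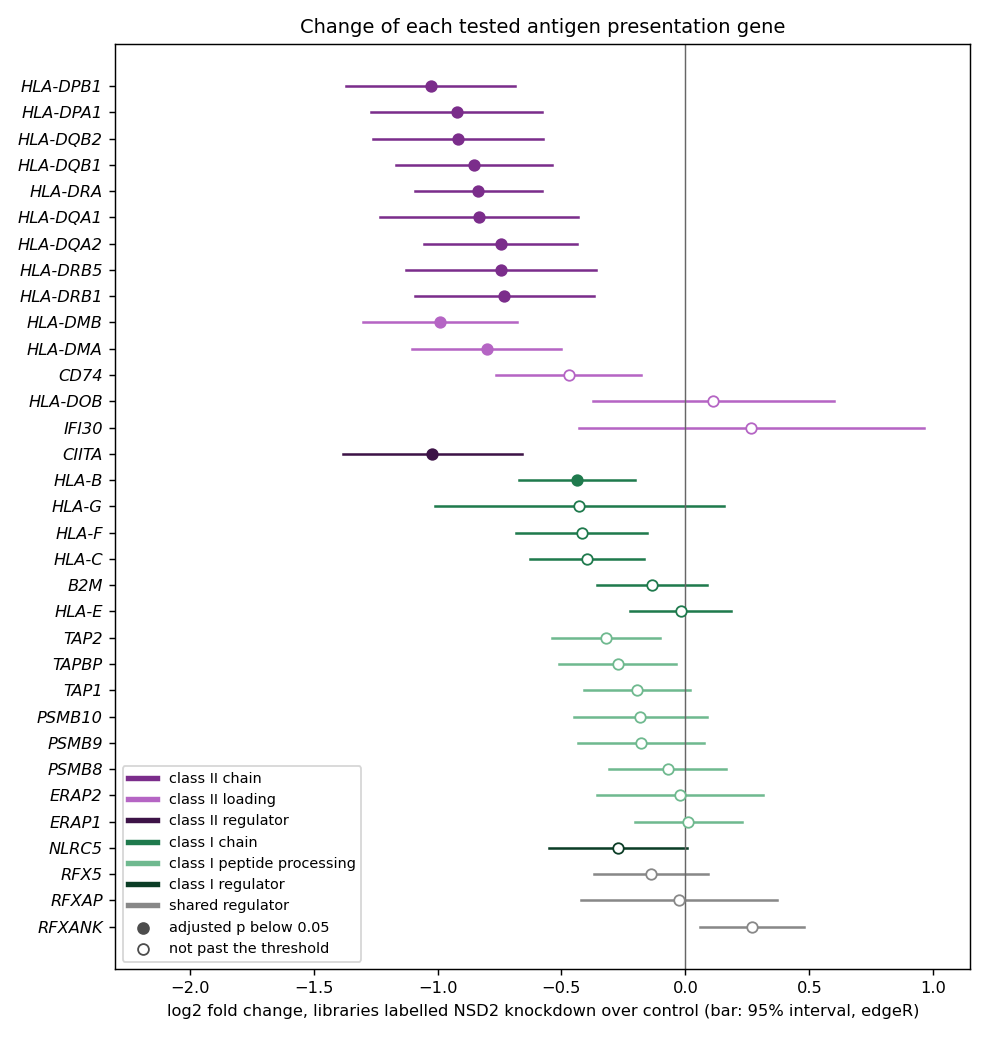
Log2 fold change of each of the 33 tested genes (horizontal axis, libraries labelled NSD2 knockdown over control, edgeR), with its 95% interval as a bar, coloured by role; filled points passed an adjusted p of 0.05. The 9 class II chains lie between -1.03 and -0.73, left of every class I gene, of which HLA-B at -0.44 is the lowest.

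All 9 tested class II chains fell. HLA-DRA (ENSG00000204287, chromosome 6, 32407619 to 32412823, GRCh37) encodes the alpha chain shared by all HLA-DR molecules and was the most abundant of them. It gave 1207 and 1061 CPM under the Control label, against 682 and 589 CPM under the Knockdown label. The highest knockdown value lay well below the lowest control value. HLA-DRA fell by 43.9% (log2 fold change -0.84, 95% interval -1.09 to -0.58, SE 0.11, edgeR adjusted p = 0.00354).

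The beta chains of HLA-DR were lower in the same direction. HLA-DRB1 gave 293 and 222 CPM under the Control label, against 178 and 132 CPM under the Knockdown label (log2 fold change -0.73, adjusted p = 0.0283). HLA-DRB5, a further beta chain gene that only some haplotypes carry, stood at 68.5 and 50.1 CPM against 41.0 and 29.9 CPM (log2 fold change -0.74, adjusted p = 0.0334). In both genes the groups did not overlap, but the libraries of each group stood well apart, with library 2 the lower in both groups. The promoter stretches of these genes printed above share 56 of 57 letters. The genes are close relatives, and fragments of their transcripts can be shared between them.

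HLA-DPB1, the beta chain of HLA-DP, had the lowest log2 fold change of the class II chains. It gave 97.0 and 72.2 CPM under the Control label, against 46.2 and 36.9 CPM under the Knockdown label, and fell by 50.9% (log2 fold change -1.03, SE 0.15, adjusted p = 0.00517). Its partner HLA-DPA1 stood at 99.7 and 80.2 CPM against 54.9 and 40.1 CPM (log2 fold change -0.92, adjusted p = 0.00872). The genes of this pair are read from opposite strands and share 96 exonic bases, and counting ignored strand, so fragments in that overlap cannot be assigned.

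The HLA-DQ genes fell as well. HLA-DQB1 gave 55.04 and 45.19 CPM under the Control label, against 31.2 and 24.3 CPM under the Knockdown label (log2 fold change -0.85, adjusted p = 0.00814). HLA-DQA1 stood at 98.2 and 78.3 CPM against 59.8 and 39.4 CPM (log2 fold change -0.83, adjusted p = 0.0251). HLA-DQA2 and HLA-DQB2, copies of the DQ genes that most cells transcribe little, changed by -0.75 and -0.92 on the log2 scale. HLA-DQA2 stood at 66.5 and 56.4 CPM against 41.6 and 31.8 CPM, and HLA-DQB2 at 14.6 and 12.7 CPM against 8.08 and 6.43 CPM. How many of the fragments given to these copies belong to their relatives HLA-DQA1 and HLA-DQB1 was not tested.

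**Figure D2:**
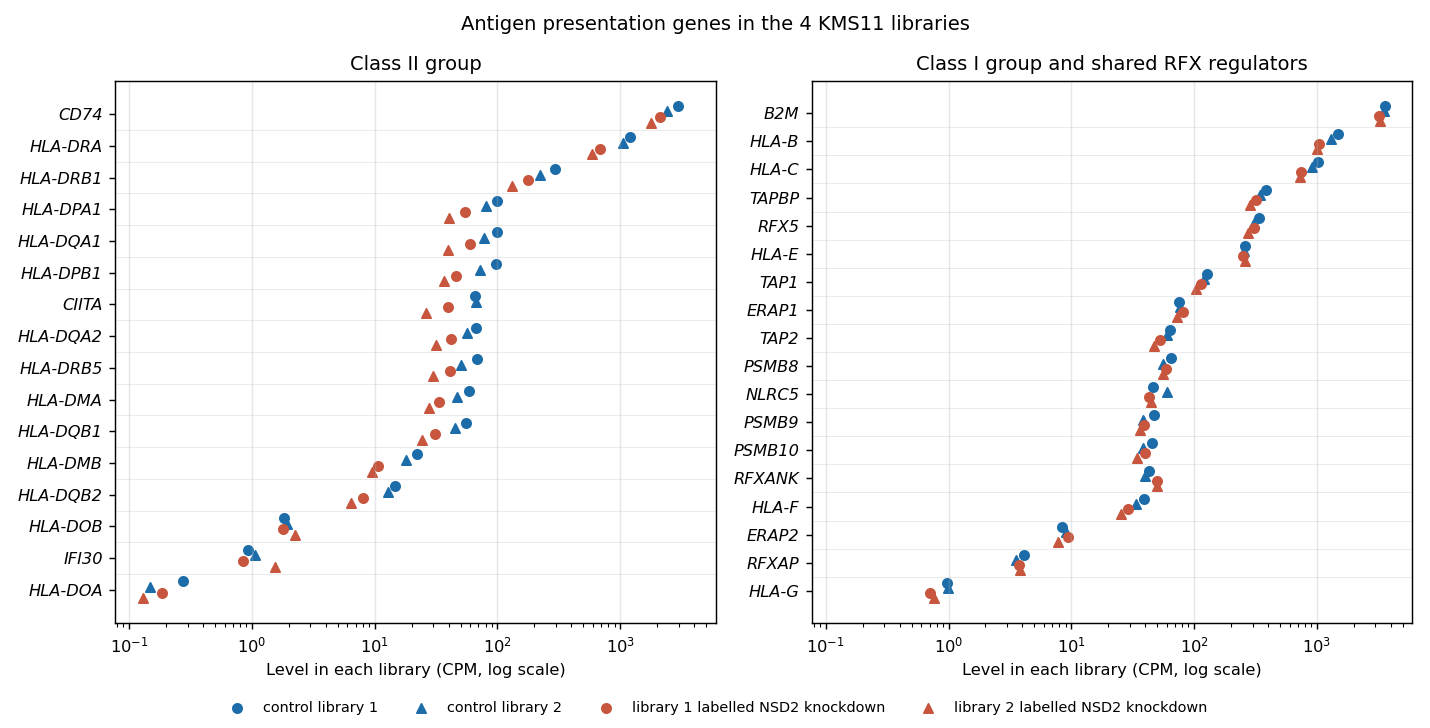
Level of each gene in each of the 4 libraries (horizontal axis, CPM on a log scale; blue control, red labelled NSD2 knockdown; circles library 1, triangles library 2), ordered by control mean. In the class II panel the red points lie left of the blue ones from CD74 down to HLA-DQB2 and overlap them for HLA-DOB, IFI30 and HLA-DOA; in the class I panel the shifts are smaller.

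The genes that load class II molecules divided. HLA-DMA, the alpha chain of the peptide exchanger HLA-DM, gave 59.1 and 47.2 CPM under the Control label, against 33.4 and 27.6 CPM under the Knockdown label (log2 fold change -0.80, adjusted p = 0.00872). Its partner HLA-DMB stood at 22.1 and 18.0 CPM against 10.7 and 9.50 CPM and fell by 49.6% (log2 fold change -0.99, SE 0.14, adjusted p = 0.00393). Both HLA-DM chains thus changed within the range of the class II chains.

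CD74 (ENSG00000019582, chromosome 5, 149781200 to 149792492, GRCh37), the invariant chain that fills the groove of new class II molecules, did not pass the test. It gave 2967 and 2405 CPM under the Control label, against 2098 and 1779 CPM under the Knockdown label. The groups did not overlap, and the log2 fold change was -0.47, with a 95% interval of -0.76 to -0.18 (SE 0.13, adjusted p = 0.0678). CD74 crossed the threshold with DESeq2 (adjusted p = 0.0083), without a filter on low counts, without control library 2 and without library 1 labelled NSD2 knockdown, and its p over the alternatives that keep the groups unpaired ranged from 2.2e-05 to 0.2.

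The remaining loading genes were low throughout. HLA-DOB, the beta chain of HLA-DO, gave 1.82 and 1.93 CPM under the Control label, against 1.80 and 2.25 CPM under the Knockdown label (log2 fold change 0.11, 95% interval -0.37 to 0.60, adjusted p = 0.803). IFI30, a lysosomal thiol reductase that opens disulfide bonds of antigens, stood at 0.929 and 1.06 CPM against 0.847 and 1.53 CPM (log2 fold change 0.27, 95% interval -0.43 to 0.96, adjusted p = 0.666). The groups overlapped for both, and their intervals are wide. HLA-DOA, the alpha chain of HLA-DO, was the only member too low to test, with 14 and 7 fragments in the control libraries and 9 and 7 in those labelled knockdown.

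CIITA (ENSG00000179583, chromosome 16, 10971055 to 11026079, GRCh37), the class II coactivator, lies outside the MHC and fell by 50.7%. It gave 65.9 and 67.2 CPM under the Control label, against 39.5 and 26.2 CPM under the Knockdown label. The control libraries were close together and those labelled knockdown were not, and the groups were far apart. The log2 fold change was -1.02, with a 95% interval of -1.38 to -0.66 (SE 0.16, adjusted p = 0.00677). With GC content and length terms in edgeR it was smaller, at -0.79 (adjusted p = 0.0205). Part of the gene, 669 of its 12036 exonic bases, overlaps the antisense gene DEXI, which had 518 fragments over the 4 libraries.

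The RFX subunits, on which CIITA docks, were not called in either direction by edgeR, DESeq2 or limma-voom. RFX5, the subunit that binds the X box, gave 336 and 307 CPM under the Control label, against 309 and 275 CPM under the Knockdown label (log2 fold change -0.14, 95% interval -0.37 to 0.09, adjusted p = 0.472). RFXAP stood at 4.15 and 3.54 CPM against 3.74 and 3.81 CPM (log2 fold change -0.03). RFXANK stood at 42.6 and 39.9 CPM against 49.9 and 49.4 CPM, with no overlap and the knockdown side higher, and did not pass the test (log2 fold change 0.27, 95% interval 0.06 to 0.48, adjusted p = 0.128). Groups that do not overlap with knockdown higher make up 27% of all tested genes.

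Among the class I chains, HLA-B was the only member called. HLA-B (ENSG00000234745, chromosome 6, 31321649 to 31324965, GRCh37), a classical heavy chain that presents to CD8 T cells, gave 1476 and 1306 CPM under the Control label, against 1046 and 1008 CPM under the Knockdown label. It fell by 26.2% (log2 fold change -0.44, 95% interval -0.67 to -0.21, SE 0.10, adjusted p = 0.0378). HLA-B no longer passed without control library 1 (log2 fold change -0.343) or without library 2 labelled NSD2 knockdown (-0.418). Over the alternatives that keep the groups unpaired the log2 fold change stayed negative, which largely follows from groups that do not overlap.

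HLA-C, also a classical heavy chain, gave 1025 and 908 CPM under the Control label, against 743 and 724 CPM under the Knockdown label (log2 fold change -0.40, 95% interval -0.63 to -0.17, adjusted p = 0.0525). HLA-F, a nonclassical heavy chain, stood at 39.0 and 33.5 CPM against 29.02 and 25.25 CPM (log2 fold change -0.42, 95% interval -0.68 to -0.15, adjusted p = 0.0701). Neither overlapped between the groups and neither passed the test, and both passed it with DESeq2 (adjusted p = 0.00773 for HLA-C and 0.0478 for HLA-F). HLA-G, another nonclassical heavy chain, was near 1 CPM, at 0.969 and 0.996 CPM against 0.703 and 0.755 CPM (log2 fold change -0.43, 95% interval -1.01 to 0.16, adjusted p = 0.372).

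HLA-E and B2M stood apart from the other class I chains by their small differences. HLA-E, which presents leader peptides of other class I chains to natural killer cells, gave 258 and 257 CPM under the Control label, against 248 and 260.2 CPM under the Knockdown label. Its log2 fold change was -0.02 with a 95% interval from -0.22 to 0.19 (adjusted p = 0.932), and it was positive, at 0.02, without library 1 labelled NSD2 knockdown. B2M, the light chain shared by all class I molecules, stood at 3596 and 3504 CPM against 3181 and 3285 CPM (log2 fold change -0.13, 95% interval -0.36 to 0.09, adjusted p = 0.471).

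Of the 8 genes of class I peptide processing 0 were called by edgeR, DESeq2 or limma-voom, and their median log2 fold change was -0.18. At an unadjusted p below 0.05 in edgeR 2 of the 8 passed, TAP2 and TAPBP, against 3865 of all 17172 genes tested. TAP2, a subunit of the peptide transporter, gave 64.1 and 60.5 CPM under the Control label, against 52.5 and 47.3 CPM under the Knockdown label (log2 fold change -0.32, adjusted p = 0.0901). The tapasin gene TAPBP, which bridges the transporter and the heavy chain, stood at 386 and 342 CPM against 318 and 285 CPM (log2 fold change -0.27, adjusted p = 0.167). TAP1, the other transporter subunit, had a log2 fold change of -0.20 (adjusted p = 0.265). These 3 genes were the ones of the 8 whose groups did not overlap, with knockdown lower, against 26.2% of all tested genes.

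The immunoproteasome subunits PSMB8, PSMB9 and PSMB10 overlapped between the groups. Their log2 fold changes were -0.07, -0.18 and -0.18, with adjusted p of 0.739, 0.394 and 0.416 by edgeR. With each library left out in turn PSMB9 ranged from -0.316 to -0.03 and PSMB10 from -0.309 to -0.045, both nearest to 0 without control library 1. PSMB8 gave 65.4 and 55.3 CPM under the Control label, against 58.7 and 56.2 CPM under the Knockdown label. The trimming proteases ERAP1 and ERAP2 had log2 fold changes of 0.01 and -0.02, with 95% intervals from -0.20 to 0.23 and from -0.36 to 0.31. Their signs turned under some settings. NLRC5, the class I coactivator, stood at 46.0 and 59.6 CPM against 43.1 and 44.3 CPM (log2 fold change -0.27, 95% interval -0.55 to 0.01, adjusted p = 0.232). Control library 2 was the high value for NLRC5, and without control library 1 the gene passed the test (log2 fold change -0.44, adjusted p = 0.00862). Without control library 2 it was -0.08 (adjusted p = 0.771), and with GC content and length terms -0.046 (adjusted p = 0.80).

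Levels per length show the balance of the routes in each library. FPKM is CPM per kilobase of the deposited exonic length. The summed level of the 9 class II chains was 1363 and 1152 FPKM in the control libraries and 783 and 646 FPKM in those labelled knockdown. The summed level of the 5 class I heavy chains in the list was 984 and 880.1 FPKM against 726 and 709 FPKM. The ratio of the class II sum to the class I sum was 1.39 and 1.31 in the control libraries and 1.08 and 0.911 in those labelled knockdown. The class II sum thus exceeded the class I sum in every library except library 2 labelled NSD2 knockdown.

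Ratios of partner chains show whether a pair moved alike. The ratio of HLA-DRA to HLA-DRB1 in FPKM was 3.96 and 4.59 in the control libraries against 3.68 and 4.28, and that of HLA-DQA1 to HLA-DQB1 was 1.25 and 1.21 against 1.34 and 1.13. Both overlapped between the groups. The ratio of HLA-DPA1 to HLA-DPB1, 0.512 and 0.553 against 0.591 and 0.541, overlapped too. The ratio of CD74 to HLA-DRA did not overlap, at 0.988 and 0.911 in the control libraries and 1.24 and 1.21 in those labelled knockdown. HLA-DMA to HLA-DMB did not overlap either, at 4.66 and 4.55 against 5.43 and 5.06. With 2 libraries a group, an exact two-sided permutation test of such a ratio cannot go below 0.333, and none was made.

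Of the 34 members 23 lie on chromosome 6. The class II region was taken from the start of HLA-DRA to the end of HLA-DPB1 (chromosome 6, 32407619 to 33054978, GRCh37). In it 19 of 36 genes were tested and 12 fell, against 4.19% of all genes tested. Those 12 were 11 class II members and HLA-DRB6 (log2 fold change -0.77, adjusted p = 0.0290). HLA-DRB6 is a pseudogene related to the HLA-DRB genes, and its fragments may be shared with them. The ends of the region were set by HLA-DRA and HLA-DPB1, which themselves fell. Only 3 of its tested genes were not members, and 1 of these, HLA-DRB6, fell, so the count mostly repeats the members above. TAP1, TAP2, PSMB8 and PSMB9 lie inside the same region, and 0 of these 4 was called by edgeR, DESeq2 or limma-voom. Of the 4, 1 (TAP2) had an unadjusted p below 0.05 in edgeR, as did 3865 of all 17172 genes tested. BRD2, a bromodomain gene between HLA-DMA and HLA-DOA, had a log2 fold change of 0.13, and HLA-DOB beside TAP2 had 0.11. The map of changes along the region shows the genes that fell on both sides of these.

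**Figure D3:**
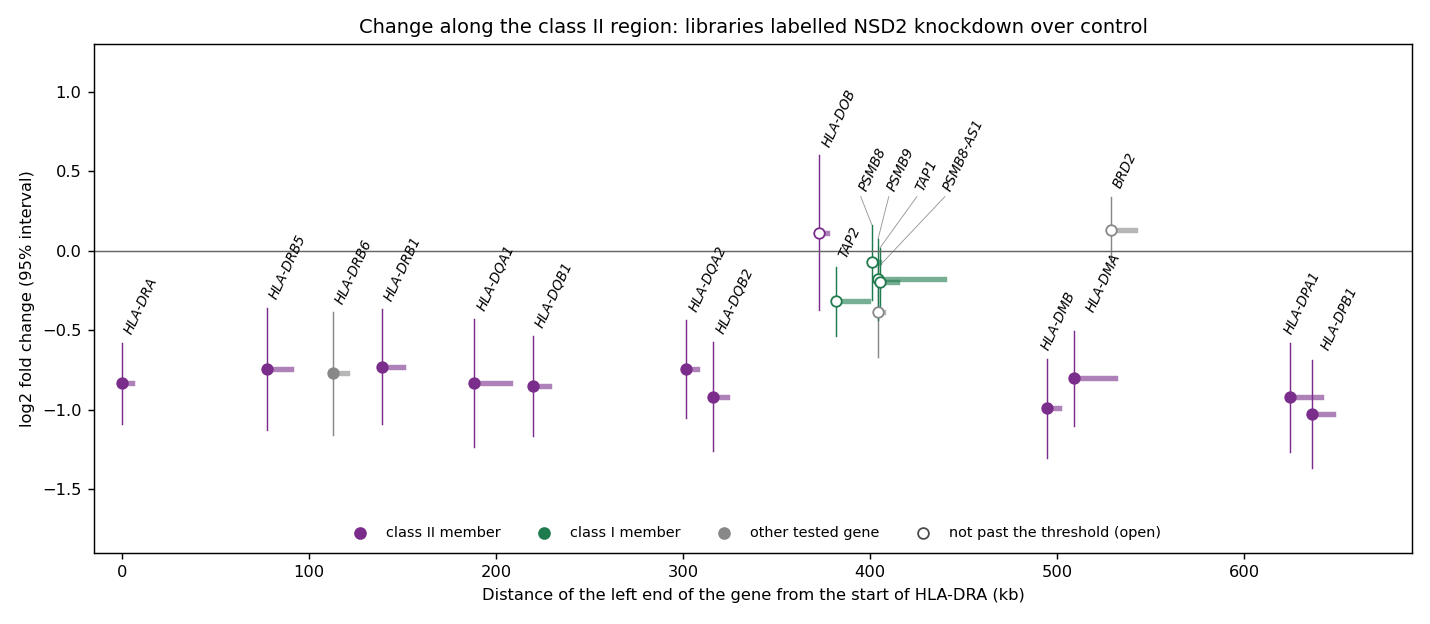
Log2 fold change with its 95% interval (vertical axis, libraries labelled NSD2 knockdown over control) of the 19 tested genes of the class II region against the distance of each gene from the start of HLA-DRA (horizontal axis, kb; thick bars span the gene). The purple class II genes lie between -1.03 and -0.73 except HLA-DOB at 0.11, while the green class I genes in the middle lie between -0.32 and -0.07.

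The size of the class II change depended on which libraries were compared. All 12 class II members that fell were lower in library 1 labelled NSD2 knockdown than in control library 1. They were also lower in library 2 labelled NSD2 knockdown than in control library 2. Both follow from groups that do not overlap, so the constant direction is no further support. The uncalled HLA-DOB and IFI30 changed sign with a library left out (-0.065 to 0.267 and -0.235 to 0.625). The uncalled CD74 stayed negative (-0.62 to -0.307). In 11 of the 12 library 2 was also below library 1 within both groups, the exception being CIITA. With each library left out in turn, the log2 fold change of HLA-DRA ranged from -0.94 to -0.73, that of HLA-DRB1 from -0.96 to -0.51 and that of CIITA from -1.34 to -0.76. The number of class II members called lower was 12 or 13 in these 4 fits. HLA-DQA1 and HLA-DRB5 lost their calls with robust empirical Bayes (adjusted p = 0.0665 and 0.0608).

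**Figure D4:**
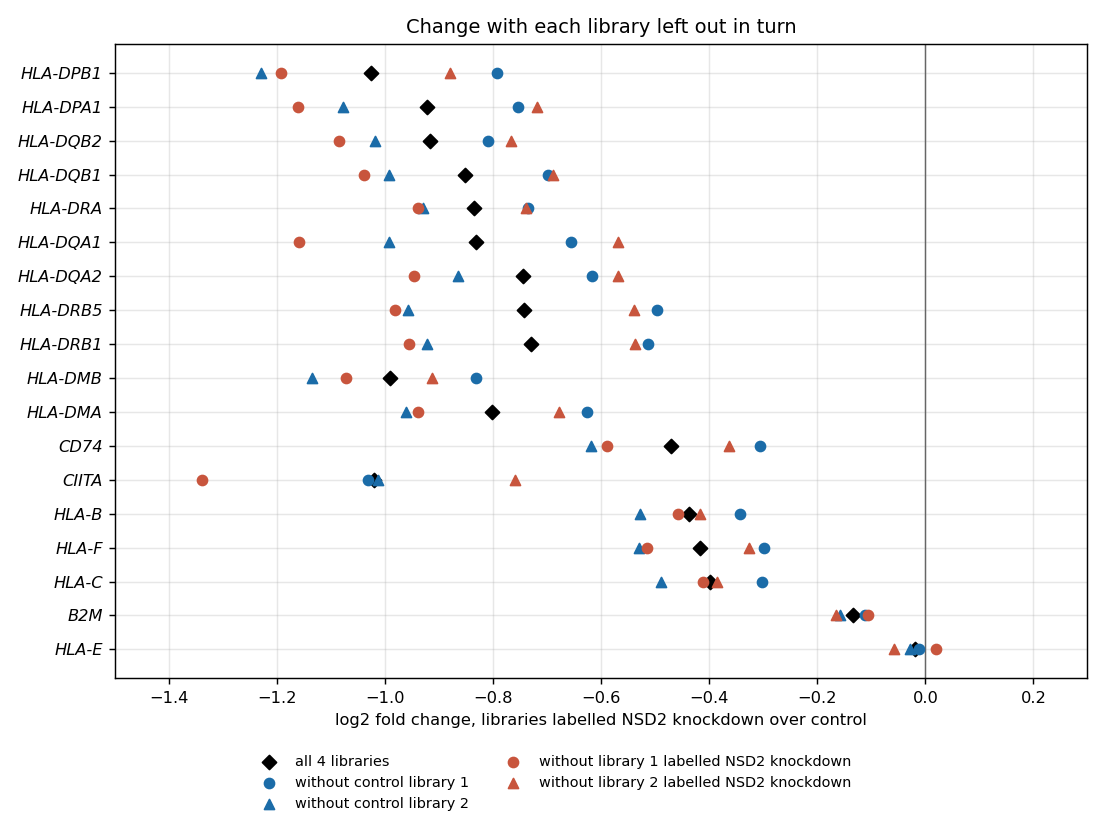
Log2 fold change (horizontal axis, libraries labelled NSD2 knockdown over control) of the 13 called genes and of CD74, HLA-C, HLA-F, B2M and HLA-E, with all 4 libraries (black) and with each library left out in turn (colours and shapes as in the key). The class II points spread within each gene, for CIITA from -1.34 to -0.76. Every one of them stays below 0, which follows from groups that do not overlap.

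The authors' deposited table, a DESeq2 contrast named M2 over LUC whose libraries are not stated, called 5 members lower at an adjusted p below 0.05, and 1.49% of all genes with an adjusted p. They were HLA-DMB (adjusted p = 0.00578), HLA-DPB1 (0.0223), HLA-DQB1 (0.0260), HLA-DMA (0.0370) and HLA-DQB2 (0.0406), all of the class II route. HLA-DRA in the authors' deposited table had a log2 fold change of -0.81 (adjusted p = 0.0677), and CIITA had -0.98 (adjusted p = 0.237). The base mean of HLA-DRA in the authors' deposited table was 22508, against a mean of 44027 raw fragments over these 4 libraries. That of CD74 was 57690 against 115409, and that of CIITA 1307 against 2459. The gap was not alike for all members. B2M stood at 185636 against 169869, HLA-E at 13879 against 12836 and HLA-DOB at 161 against 98. Its cause was not tested, and the libraries and scaling behind that model are not given in the sources used here.

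Other genes of the pathways were taken from lists chosen by function. Of 12 tested partners of class I, which include chaperones and proteasome subunits, 1 rose and 1 fell, against 1.74% and 4.19% of all genes tested. The median log2 fold change of the 12 was 0.15. The cytosolic aminopeptidase NPEPPS rose from 111 and 112 CPM in the control libraries to 169 and 175 CPM (log2 fold change 0.63, adjusted p = 0.00437). MR1, a class I-like molecule that presents vitamin metabolites to MAIT cells, fell from 80.7 and 82.8 CPM to 63.5 and 57.6 CPM (log2 fold change -0.43, adjusted p = 0.0270). The chaperone CALR, at 1136 and 1127 CPM under the Control label, had a log2 fold change of 0.18 (adjusted p = 0.298).

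Of 10 tested partners of class II, which include endosomal proteases and ubiquitin ligases, 1 rose and 1 fell, against 1.74% and 4.19% of all genes tested. The median log2 fold change of the 10 was 0.20. DESeq2 called 2 of them higher and 0 lower. CD83, which protects class II molecules at the surface from turnover, rose from 0.554 and 0.551 CPM to 1.55 and 1.45 CPM (log2 fold change 1.44, adjusted p = 0.0116), still a low level. The protease CTSH fell from 2.39 and 2.03 CPM to 1.18 and 1.10 CPM (log2 fold change -0.96, adjusted p = 0.0355). CTSS, the protease that cuts CD74 in B cells, stood at 86.7 and 81.9 CPM against 102 and 90.7 CPM (log2 fold change 0.19, adjusted p = 0.288). LGMN, an asparaginyl endopeptidase, had a log2 fold change of 0.55 (adjusted p = 0.0623).

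Of 22 tested genes of interferon gamma signalling and MHC regulation, 3 had an unadjusted p below 0.05 in edgeR, against 3865 of all 17172 genes tested. Of the 22, 0 were called in either direction by edgeR and 1 was called lower by DESeq2. Their median log2 fold change was -0.10. PRDM1, a repressor of CIITA in plasma cells, stood at 155 and 182 CPM against 145 and 169 CPM (log2 fold change -0.10, adjusted p = 0.644). IRF1, an interferon-induced activator of class I genes, stood at 90.4 and 62.4 CPM against 80.3 and 59.3 CPM (log2 fold change -0.13, adjusted p = 0.719), with library 2 the lower in both groups. IRF4, a plasma cell transcription factor, stood at 597 and 697 CPM against 469 and 525 CPM (log2 fold change -0.38, adjusted p = 0.0810). The Y box factor genes NFYA, NFYB and NFYC had log2 fold changes of -0.05, -0.10 and 0.12.

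Most markers of other cells that carry class II were near 0, but the B cell marker CR2 was not, at 34.6 to 42.3 CPM. Of the B cell markers 4 of 5 were below 1 CPM in every library, MS4A1 among them. Their summed level, nearly all of it CR2, was 38.4 to 42.8 CPM in the control libraries and 35.2 to 38.1 CPM in those labelled knockdown. Of the monocyte and macrophage markers 5 of 6 were below 1 CPM, with a sum of 2.04 to 2.69 CPM against 1.63 to 1.77 CPM, and LYZ was at 0 in 3 of the 4 libraries. All 5 dendritic cell markers were below 1 CPM, with a sum of 0.403 to 0.534 CPM against 0.129 to 0.207 CPM. Of these, CLEC10A was at 0 in every library and ITGAX was called lower. T and NK cell markers summed to 3.82 to 4.45 CPM against 2.62 to 2.71 CPM, nearly all of it CD3E, and CD3D and KLRD1 were at 0 in every library. Fibroblast markers summed to 0.712 to 1.12 CPM against 0.765 to 0.792 CPM. Of the 6 epithelial and kidney line markers 3 were tested. All 3 (EPCAM, KRT18 and CDH1) were called lower, against 4.19% of all genes tested, and the other 3 stayed below 1 CPM. The sum of the 6, most of it EPCAM, was 53.8 to 66.4 CPM in the control libraries and 32.8 to 34.4 CPM in those labelled knockdown. Any link of these markers to the class II genes was not tested.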

How the data were processed

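Messenger RNA libraries of KMS11 cells (2 labelled Control, 2 labelled NSD2 Knockdown) were made from 1 µg of total RNA. The deposited values are raw fragment counts per gene. Per the submitters' processing notes, the authors used Trim Galore 0.3.7, STAR 2.5.3, Picard, featureCounts of Subread 1.4.6 and DESeq2, with GRCh37. Per the file headers, paired fragments were counted without strand on alignments with duplicates removed. Removing duplicates without molecular identifiers can lower the counts of abundant genes such as CD74 and B2M. The authors' deposited table holds, for each gene, the exonic length, a base mean (a signal), the log2 fold change and its error, a Wald score, and p-values before and after adjustment. Its 4 count columns and the 1 blank line of each count file were left out.

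The 34 symbols were matched in that table on chromosomes 1 to 22 and X and joined to the counts by identifier. The 136 rows of 22 members on alternate haplotypes held 0 fragments. Of the members, 18 overlap exons of another gene, 14 of them a gene with fragments. Because counting ignored strand, their fragments cannot be assigned in the overlap, and fragments of related HLA genes may be shared or lost.

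All genes were tested by quasi-likelihood in edgeR 4.0.16 (R 4.3.3, TMM, filterByExpr, only the group in the model), with Benjamini-Hochberg adjustment over 17172 genes and a threshold of 0.05. The test was run first on simulated counts with known changes. Levels are CPM, or FPKM where genes are compared. Alternatives were scaling by RLE, by upper quartile or by library size alone, no filter, a filter of 1 CPM, DESeq2 1.42.0, limma-voom 3.58.1, robust empirical Bayes, a replicate block, each library left out and summed rows of a symbol, and, added after seeing the data, smooth terms for GC content and length. A fit without 1 library has a lone library in 1 group, which is assumed to vary like the other group. The members, the gene lists and the rule for named genes (every member, from each list up to 3 past the threshold in each direction, and NSD2, IRF1, IRF4 and PRDM1, with 1 further gene not reported here) were chosen with earlier results of these data known. CALR, CTSS, LGMN, the NFY genes, BRD2, HLA-DRB6 and the markers named were picked outside that rule, after their values were seen. Promoter windows are those of RefSeq on GRCh38.p14, matched by symbol, and all gene coordinates are GRCh37.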

Additional observations from a re-analysis of the deposited data

How the results depend on the processing

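HLA-DOA, HLA-DOB, HLA-G and IFI30 had few fragments, so small changes in them were not detectable at this depth. The cause of each change below was not tested. All 13 called members were called lower under 13 of the 16 alternatives. Robust empirical Bayes called 10 class II members and lost HLA-DQA1 and HLA-DRB5, and HLA-B was lost without control library 1 and without library 2 labelled NSD2 knockdown.

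The class I group had 1 member called lower with all libraries, 2 with upper-quartile scaling, 3 without a filter, 3 with DESeq2, 2 with limma-voom, 2 with GC content and length terms and 0 to 4 with a library left out (4 without control library 2). HLA-C or HLA-F was among the added members in each setting with more than 1, and CD74 was the member added to the class II group without a filter, with DESeq2, without control library 2 and without library 1 labelled NSD2 knockdown. Over all genes, 658 were called higher and 1490 lower without a filter, where 31645 genes were tested, against 299 and 719. With a library left out the counts ranged from 173 to 682 higher and from 649 to 1342 lower. They were 173 without library 2 labelled NSD2 knockdown, and 682 and 1342 without control library 1. With GC content and length terms, 667 were called higher and 621 lower, so 48.2% of the calls were lower, against 70.6% without these terms. The median log2 fold change over all genes tested moved too, to 0.0671 with these terms from -0.00165 without them.

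Labels give both groups the numbers 1 and 2 without saying that a number marks a shared culture or day, and the differences of library 2 from library 1 correlated between the groups with r = 0.236 over 17172 genes. A replicate block on these numbers called 1327 genes higher and 1992 lower (11.6% of those tested), among them 13 class II and 6 class I members lower and 1 member, RFXANK, higher. The block together with GC content and length terms called 3289 higher and 1900 lower, with 5 class I members lower and 1 member higher.

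Members near 0 changed sign, all of them uncalled. The log2 fold change of ERAP1 was -0.001 with upper-quartile and -0.006 with library-size scaling, and -0.068 to 0.087 with a library left out. ERAP2 ranged from -0.167 to 0.11 with a library left out, and was 0.092 with GC content and length terms and 0.087 with the block added. HLA-E ranged from -0.059 to 0.019, and was 0.027 in both fits with GC content and length terms. With a library left out, HLA-DOB ranged from -0.065 to 0.267, IFI30 from -0.235 to 0.625, PSMB8 from -0.193 to 0.059 and RFXAP from -0.143 to 0.098.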
